A study of Mus musculus with 20 samples.

Results

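The 34 genes described here encode the laminins, collagens, linker proteins, glycoproteins and matrix enzymes from which cells build and remodel basement membrane and connective tissue matrix. They were taken by symbol from the 55471 genes counted in SIMS cells, a cell line of the mouse salivary gland, and each symbol matched 1 gene of the GENCODE M21 annotation. By role they fell into 6 laminin chains, 3 collagens of the basement membrane, 4 linkers and proteoglycans, 8 fibrillar and associated collagens, 7 matrix glycoproteins and small proteoglycans, and 6 enzymes and inhibitors. Total RNA was sequenced from 5 groups of 4 libraries: wild type, Btbd7 KO, and Zcchc8 KO clones 1, 2 and 3. The knockouts were made with CRISPR/Cas9, and the labels name the Btbd7 KO cells as the negative control. All groups grew in the same serum-containing DMEM. ZCCHC8 is a subunit of the nuclear exosome targeting complex, which hands short-lived nuclear RNA to the RNA exosome. The study asked which transcripts accumulate without it. Besides genes, the reads were counted over PROMPT regions, stretches upstream of promoters that give rise to promoter upstream transcripts, in 19 libraries (wild-type replicate 1 has no column there). Each Zcchc8 KO group was 1 clone and the other groups were 1 line each. The labels do not say that the 4 libraries of a group came from separate cultures, so a p-value measures the spread between these libraries, which may be technical.

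Basement membrane is the thin matrix sheet under an epithelium. Laminins, trimers of an alpha, a beta and a gamma chain, form its first network, and type IV collagen, in most tissues a trimer of the Col4a1 and Col4a2 products, forms the other. Nidogens and the heparan sulfate proteoglycans perlecan and agrin join these networks. Fibrillar collagens and many glycoproteins belong to the connective tissue matrix that fibroblasts mainly lay down, while TIMP proteins inhibit the metalloproteinases that cut matrix. In the developing salivary gland, epithelial buds branch inside a basement membrane that is thinned and renewed as clefts form, and BTBD7 is known as a regulator of that branching.

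Gene counts summed to between 6833258 and 17771804 per library, and the 4 libraries of clone 1 were all shallow, from 6833258 to 7683444. Wild-type replicate 1 stood apart, with a count in 14245 genes where its 3 sister libraries had 17442 to 18791, so counts of calls are also given without it. The 34 genes held 0.807 to 0.878% of the counts in wild type, 0.852 to 0.919% in Btbd7 KO, 0.664 to 0.727% in clone 1, 0.683 to 0.724% in clone 2 and 0.728 to 0.794% in clone 3. Zcchc8 itself stood at 61.6 to 68.1 CPM (read counts relative to the library total, scaled by trimmed mean of M values, TMM) in wild type, 21.9 to 24.9 in clone 2 and 50.4 to 60.6 in clone 3. In clone 1 it stood at 55.1 to 65.6 CPM, and its log2 fold change of -0.11 ± 0.078 did not pass the test (adjusted p = 0.291). A count over a whole gene need not show a small deletion, so it does not check the clone 1 label. Btbd7 averaged 202 ± 7.64 CPM (SD over 4 libraries) in wild type and 99.2 ± 3.23 in Btbd7 KO. All 10 epithelial markers were tested. Their summed level was 3735 to 5402 CPM in wild type, 4681 to 4805 in Btbd7 KO and 3448 to 4286 in the clones. Of 7 secretory acinar markers, 2 were tested, and Smgc and Bpifa2 were at 0 in every library. The summed level of the 7 was 167.4 to 189.7 CPM in wild type and 109.1 to 115.0 in Btbd7 KO. In clones 1 to 3 it was 136.0 to 164.3, 126.5 to 155.1 and 114.7 to 124.3 CPM. The acinar marker Aqp5 was called lower in each clone and in Btbd7 KO. The epithelial markers Krt7 and Krt18 and the mesenchymal marker Prrx1 were called lower in each clone and not called in Btbd7 KO. No marker was called higher in each clone. Zeb2, a mesenchymal marker, was lower in clone 1 and higher in clone 2. Of 12 fibroblast and mesenchymal markers, 4 were tested. Their summed level was 172.7 to 216.2 CPM in wild type, 152.0 to 186.1 in Btbd7 KO, 111.0 to 129.6 in clone 1, 150.6 to 172.2 in clone 2 and 97.81 to 116.6 in clone 3, and Lum was at 0 in every group. The part of these markers in the results below was not tested. In RNA from a whole culture, fewer cells of a type and less RNA per cell cannot be told apart.

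In wild-type cells the matrix RNA was led by a few genes. Per kilobase of exon, Thbs1 was first at 467 ± 28.8 CPM (SD, n = 4), followed by Timp2 at 214 ± 13.4, Fbln2 at 151 ± 6.07, Sparc at 83.3 ± 3.56 and Lama5 at 73.4 ± 6.70. Sparc and Lama5 lay closer together than the sum of their SDs, as did Lamc1 at 48.6 ± 2.16 and Col4a1 at 46.4 ± 3.10. All 6 laminin chains were present, from Lama5 down to Lamb2 at 24.6 ± 1.82 CPM per kilobase. The fibrillar collagens stood far lower: Col1a1 at 1.74 ± 0.394, Col3a1 at 0.321 ± 0.0835 and Col1a2 at 0.0528 ± 0.0259 CPM per kilobase. A filter on low counts kept 25 of the 34 genes for testing. Nid2, Col5a1, Col6a1, Col6a2, Fbn1, Fbln1, Postn, Lox and Loxl2 did not pass it, with no more than 21 counts in any library. Nid2 had 0 counts in all 20 libraries, where 3 counts, the limit that a count of 0 allows, correspond to 0.171 to 0.434 CPM and cover counting error only. Of the 25 tested genes, 22 were above the filter in every wild-type library. Nid1, Col1a2 and Col5a2 were not, and so entered the test through the groups where they were higher.

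Of the 25 tested matrix genes, 11 were lower and 4 higher in the mean of the clones than in wild type. The test was edgeR's quasi-likelihood test with Benjamini-Hochberg adjustment over 15297 genes at an adjusted p below 0.05. Over all 15297 genes, 19.9% were called lower and 16.2% higher in that comparison, against 44.0% and 16.0% of the matrix genes. Without TMM scaling 13.1% of all genes were lower and 21.1% higher, and the matrix genes had 9 lower and 4 higher. The median log2 fold change was -0.12 for the matrix genes and -0.0057 for all genes. Clone 1 had 10 lower and 5 higher (19.1% and 16.7% of all genes), clone 2 had 13 lower and 2 higher (16.2% and 16.1%), and clone 3 had 7 lower and 6 higher (15.3% and 14% of all genes). Thbs1, Sparc, Fbln2, Timp2 and Col3a1 were called lower in each clone (5.82% of all genes), though Col3a1 passed the filter through the groups where it was higher. By edgeR, 0 of the 25 were called higher in each clone (7.64% of all genes). That count was also 0 at an unadjusted p below 0.05 and by DESeq2, and 1 without TMM scaling. In Btbd7 KO, 8 were higher and 2 lower (7.73% and 8% of all genes), with a median of 0.09. Of the higher ones, Nid1, Col1a2 and Col5a2 passed the filter through the groups where they were higher, Btbd7 KO among them. Nid1 was also among those higher in the mean of the clones and in clones 1 and 3. Without wild-type replicate 1 the mean of the clones had 13 lower and 3 higher, 4 genes were lower in each clone, and Btbd7 KO had 10 higher and 4 lower. The shares of all genes were not computed for that setting, so these counts have no such comparison. The clone and Btbd7 KO comparisons share the wild-type libraries. The 3 clones also differed from each other in 19 of the 25 genes (76.0%, against 28.5% of all genes), by the test of any difference among them. Of the 20 tested cell type markers, 14 differed too (70.0%), and 8 were lower and 2 higher in the mean of the clones. Of the matrix genes, 21 averaged 50 counts or more per library. The part of count depth in these shares was not tested.

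**Figure D1:**
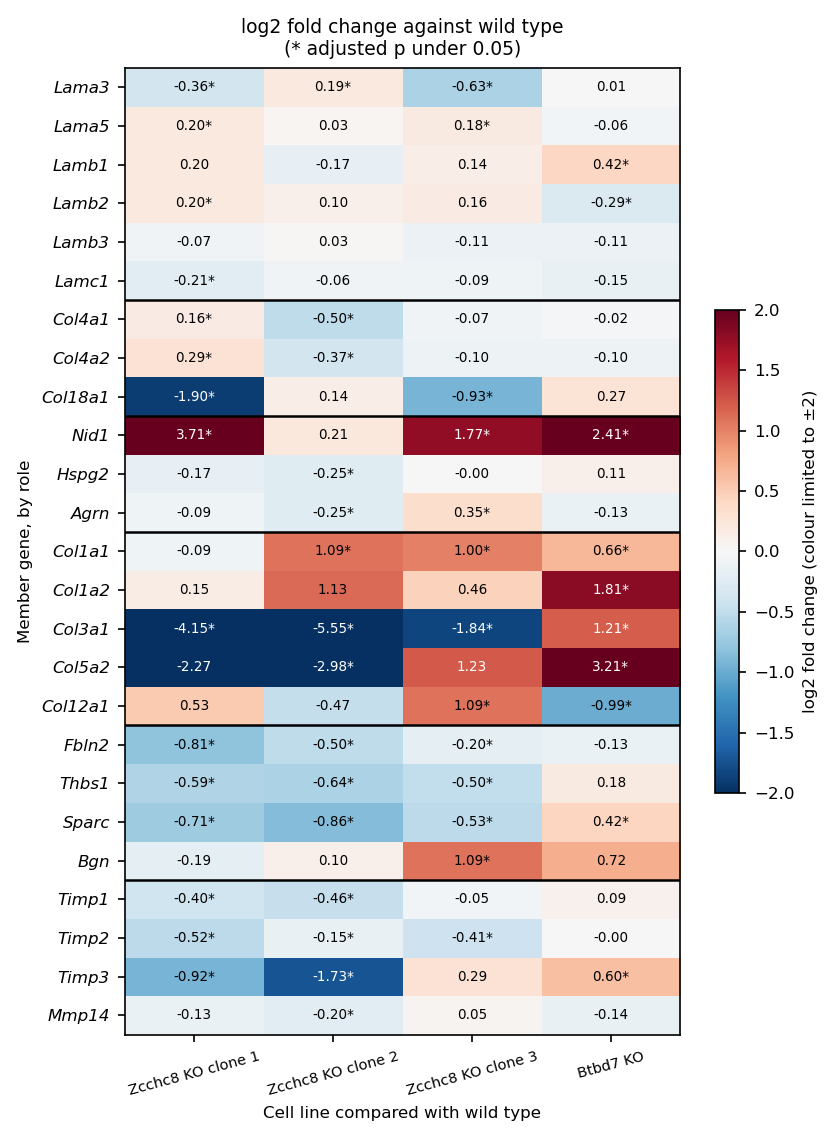
Log2 fold changes of the 25 tested matrix genes (rows, grouped by role) in each Zcchc8 KO clone and in Btbd7 KO against wild type (columns), with colour running from -2 to 2 and an asterisk at an adjusted p below 0.05. Thbs1, Sparc, Fbln2, Timp2 and Col3a1 carry an asterisk in all 3 clone columns, and Col4a1 and Col4a2 are higher in clone 1 and lower in clone 2.

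Promoter sequence is shown for the genes whose own counts, or whose PROMPT region, were called in the same direction in each clone. RefSeq windows of the 250 bases before the gene start on GRCm38.p6 matched 25 of the 34 genes with 31 windows, and the 4 windows below were the ones of that kind that overlap no annotated exon. Capitals mark matches on either strand to GGGCGG (reverse complement CCGCCC, the core of a GC box), CCAAT (reverse complement ATTGG) or TATAAA.
Lama5, chr2:180225860-180226109, minus strand: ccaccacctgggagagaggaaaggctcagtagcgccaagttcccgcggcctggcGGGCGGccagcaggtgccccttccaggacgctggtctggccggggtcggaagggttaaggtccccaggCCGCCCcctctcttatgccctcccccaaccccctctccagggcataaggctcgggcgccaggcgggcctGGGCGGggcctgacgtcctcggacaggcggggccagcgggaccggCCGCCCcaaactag
Col3a1, chr1:45311288-45311537, plus strand: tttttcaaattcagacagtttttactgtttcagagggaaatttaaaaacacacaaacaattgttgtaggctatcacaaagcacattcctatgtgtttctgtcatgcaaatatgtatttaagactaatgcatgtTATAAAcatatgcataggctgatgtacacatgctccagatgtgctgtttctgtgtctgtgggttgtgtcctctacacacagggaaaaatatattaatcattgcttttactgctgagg
Timp1, chrX:20869916-20870165, plus strand: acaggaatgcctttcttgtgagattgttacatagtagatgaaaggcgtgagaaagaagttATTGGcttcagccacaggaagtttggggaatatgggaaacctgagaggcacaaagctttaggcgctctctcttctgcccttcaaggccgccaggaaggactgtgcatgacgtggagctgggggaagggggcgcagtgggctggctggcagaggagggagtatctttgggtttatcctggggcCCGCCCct
Mmp14, chr14:54431348-54431597, plus strand: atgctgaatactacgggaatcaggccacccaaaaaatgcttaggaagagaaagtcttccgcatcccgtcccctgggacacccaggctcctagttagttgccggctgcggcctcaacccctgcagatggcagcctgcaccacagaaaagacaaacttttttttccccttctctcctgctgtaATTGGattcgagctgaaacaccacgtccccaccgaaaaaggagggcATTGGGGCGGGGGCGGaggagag
GGGCGG was found in 4 places in the Lama5 window, 2 in Mmp14, 1 in Timp1 and 0 in Col3a1. The Mmp14 window held 2 CCAAT matches, 1 of which shares a base with a GGGCGG match, and Timp1 held 1. The Col3a1 window was the only one of the 4 with TATAAA. Of the 31 windows of matrix genes, 20 held GGGCGG (64.5%), 9 held CCAAT (29.0%) and 2 held TATAAA (6.45%, Col3a1 and Postn), against 32.7%, 33.8% and 12.4% of all 32851 windows of the same length. TGANTCA, the AP-1 motif, was in 1 of the 31 (3.23%, Col6a1) and in 6.75% of all windows. Median GC content was 61.2% for the matrix genes and 52.4% for all windows. A match is only a description of these letters.

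Among the 6 laminin chains, Lama5 and Lamb2 were higher and Lama3 and Lamc1 lower in the mean of the clones, while Lamb1 and Lamb3 did not pass the test. Lama3 (ENSMUSG00000024421.16, chromosome 18, 12333819 to 12583013, plus strand) encodes a laminin alpha chain of epithelia that is found under hemidesmosomes. Its 4 libraries stood at 257, 308, 273 and 261 CPM in wild type and 279, 269.6, 287 and 271 in Btbd7 KO. Clone 1 had 224, 206, 218 and 209 CPM, clone 2 288, 319.9, 309.7 and 334, and clone 3 171, 186, 181 and 175. Every library of clones 1 and 3 was below every wild-type library, and those of clone 2 overlapped with wild type at its upper end. The log2 fold change was -0.36 ± 0.060 in clone 1 (adjusted p = 3.7e-05), -0.63 ± 0.060 in clone 3 (adjusted p = 1.46e-08) and 0.19 ± 0.059 in clone 2 (adjusted p = 0.0151). The clone 2 call was lost without its replicate 4 (0.16, adjusted p = 0.0602).

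Lama5, whose alpha chain is the main one of epithelial basement membranes and is needed for salivary gland branching, was at 836 ± 76.3 CPM in wild type and at 958 ± 30.4, 856 ± 38.7 and 945 ± 61.0 in clones 1 to 3. The mean of the clones was higher by 0.14 ± 0.048 on the log2 scale (adjusted p = 0.0294), a difference that no longer passed without wild-type replicate 1 (0.11, adjusted p = 0.053). Lamb2 was at 149.5 ± 11.04 CPM in wild type and higher by 0.15 ± 0.055 in the mean of the clones (adjusted p = 0.0314). That call was also lost without wild-type replicate 1 (0.13, adjusted p = 0.0592). Lamc1, the gamma chain of most laminins, was lower in the mean of the clones (-0.12 ± 0.042, adjusted p = 0.0266), and without TMM scaling the value was -0.042, adjusted p = 0.467. These 3 differences were small, and the libraries of all 3 clones overlapped with wild type for Lama5 and Lamb2, and those of clones 2 and 3 for Lamc1. In Btbd7 KO, Lamb1 rose from 273 ± 45.0 to 365 ± 20.4 CPM (0.42 ± 0.089, adjusted p = 0.00149), with every Btbd7 KO library above every wild-type one, and Lamb2 fell to 122 ± 6.72 CPM (-0.29 ± 0.067, adjusted p = 0.00306).

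Both type IV collagen chains rose in clone 1 and fell in clone 2. Col4a1 (ENSMUSG00000031502.11, chromosome 8, 11198423 to 11312826, minus strand) and Col4a2 lie head to head on chromosome 8, share 22 exonic bases and encode the chains of the common type IV collagen trimer. Col4a1 stood at 320.0, 375, 353 and 338 CPM in wild type and at 329.5, 355, 343 and 336 in Btbd7 KO. Clone 1 had 390.4, 387, 382 and 388 CPM, clone 2 from 234 to 259.7, and clone 3 345, 346, 307 and 318. All clone 1 libraries were above and all clone 2 libraries below every wild-type library, while those of clone 3 overlapped with wild type. The log2 fold change was 0.16 ± 0.055 in clone 1 (adjusted p = 0.0264) and -0.50 ± 0.055 in clone 2 (adjusted p = 1.37e-07). Col4a2 followed the same order, with 236 ± 30.6 CPM in wild type, 289 ± 8.20 in clone 1, 182 ± 11.8 in clone 2 and 219.8 ± 6.44 in clone 3. Its log2 fold change was 0.29 ± 0.069 in clone 1 (adjusted p = 0.00185) and -0.37 ± 0.069 in clone 2 (adjusted p = 0.000166), again with no overlap with wild type. The clone 1 call of Col4a1 was lost with no filter (0.16, adjusted p = 0.0812) and in a fit of only the groups compared (0.17, adjusted p = 0.0703). The difference among the clones passed for both genes (adjusted p = 5.1e-09 and 1.83e-07). The mean of the clones was -0.14 ± 0.045 for Col4a1 (adjusted p = 0.017). That call did not hold without TMM scaling (-0.060, adjusted p = 0.324) or without wild-type replicate 2 (-0.10, adjusted p = 0.104).

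Col18a1 (ENSMUSG00000001435.15, chromosome 10, 77052178 to 77166548, minus strand) encodes a basement membrane collagen whose end fragment is endostatin. It was at 23.9, 39.2, 42.9 and 33.1 CPM in wild type and 41.4, 45.0, 38.7 and 42.9 in Btbd7 KO. In clone 1 it was at 9.38, 8.80, 8.40 and 10.7 CPM, in clone 2 at 33.3, 39.3, 41.0 and 38.9, and in clone 3 at 17.8, 25.1, 15.9 and 14.7. Clone 1 lay well below wild type, clone 3 reached into its lower end, and clone 2 was within the wild-type range. Col18a1 had a log2 fold change of -1.90 ± 0.17 in clone 1 (adjusted p = 3.78e-09) and -0.93 ± 0.15 in clone 3 (adjusted p = 4.53e-05). In clone 2 it was 0.14 ± 0.15 and did not pass (adjusted p = 0.506). The difference among the clones passed the test (adjusted p = 2.46e-09).

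Of the linkers and proteoglycans, Nid1, Hspg2 and Agrn were tested and each differed among the clones. Agrn, the heparan sulfate proteoglycan agrin, was at 292, 343, 346 and 296 CPM in wild type, 259, 272, 286 and 257 in clone 2 and 428, 407, 381 and 415 in clone 3. It rose by 0.35 ± 0.062 in clone 3 (adjusted p = 0.000109) and fell by 0.25 in clone 2 (adjusted p = 0.00331), with no overlap with wild type in either. The clone 2 value was -0.16, adjusted p = 0.0522 without TMM scaling. Hspg2, which encodes perlecan, was called lower in clone 2 (-0.25 ± 0.074, adjusted p = 0.0118), a call lost without wild-type replicate 3 (-0.19, adjusted p = 0.0635). Nid1, the linker nidogen 1, was scarce, with 16 counts over the 4 wild-type libraries, 101 in clone 1, 15 in clone 2, 40 in clone 3 and 73 in Btbd7 KO. In CPM, clone 1 had 3.65, 3.25, 2.46 and 4.08, all above the 0, 0.347, 0.150 and 0.469 of wild type. Nid1 rose in clone 1 (3.71 ± 0.60, adjusted p = 2.49e-05), in clone 3 (1.77 ± 0.61, adjusted p = 0.0298) and in Btbd7 KO (2.41 ± 0.59, adjusted p = 0.0054). The clone 3 value was 1.45, adjusted p = 0.128 without its replicate 1. In a fit of only the groups compared, the Btbd7 KO call of Nid1 was lost (2.42, adjusted p = 0.0764). No library of wild type or clone 2 was above the filter on low counts for Nid1. It passed that filter through the groups where it was higher, clone 1 and Btbd7 KO among them. The ratio of Nid1 counts per total between clone 1 and wild type was 13.4 (95% interval 7.84 to 24.3, counting error only).

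**Figure D2:**
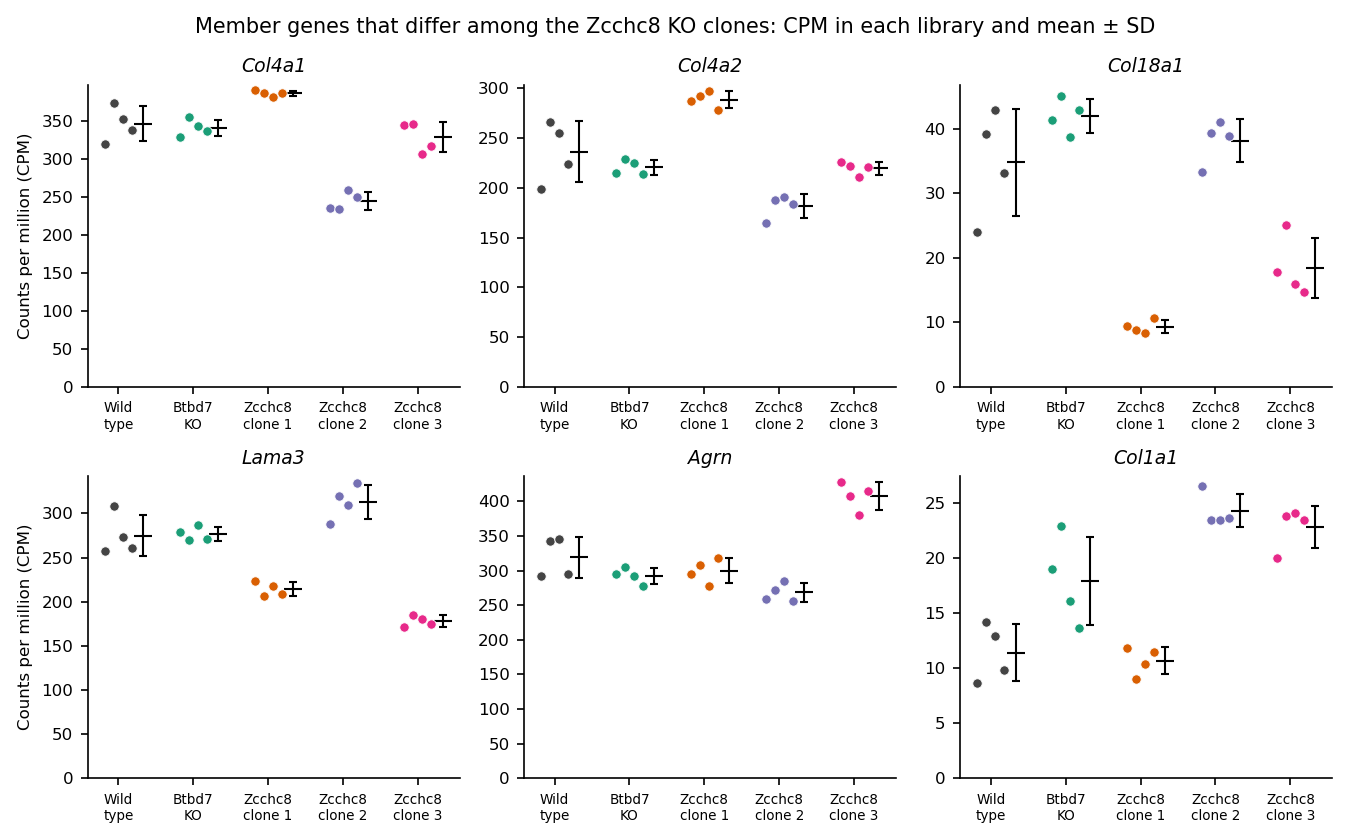
CPM (y axis) of Col4a1, Col4a2, Col18a1, Lama3, Agrn and Col1a1 in every library of the 5 groups (x axis), with points for libraries and bars for the mean ± SD of 4 libraries. Col4a1 lies between 382 and 390 in clone 1 and between 234 and 260 in clone 2, on either side of the wild-type libraries, and Col18a1 is lowest in clone 1.

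The fibrillar collagens were low in SIMS cells, and 5 of the 8 in their group were tested. Col3a1 (ENSMUSG00000026043.18, chromosome 1, 45311538 to 45349706, plus strand), the type III collagen chain of soft connective tissue, had the most negative log2 fold change of the 25 tested genes in the mean of the clones, and its printed promoter window holds TATAAA. It was at 2.08, 3.53, 2.99 and 3.99 CPM in wild type and 6.57, 9.16, 7.69 and 5.83 in Btbd7 KO. Clone 1 had 0.391, 0.271, 0 and 0 CPM, clone 2 0.137, 0, 0 and 0.138, and clone 3 1.14, 0.753, 1.27 and 0.409. All 12 clone libraries were below every wild-type library, and all Btbd7 KO libraries were above the wild-type ones. No library of clones 1 and 2 was above the filter on low counts. Col3a1 thus passed that filter through the groups where it was higher. In counts, the wild-type libraries held 201, clone 1 held 5, clone 2 held 3, clone 3 held 38 and Btbd7 KO held 378. The ratio to wild type was 0.0526 in clone 1 (95% interval 0.0169 to 0.125), 0.0177 in clone 2 (0.00361 to 0.0523) and 0.268 in clone 3 (0.184 to 0.380), with intervals that cover counting error only. Col3a1 fell in each clone, with an adjusted p of 7.89e-06 in clone 1, 2.88e-07 in clone 2 and 0.00272 in clone 3. In Btbd7 KO it rose by 1.21 ± 0.39 (adjusted p = 0.0326), a call lost without Btbd7 KO replicate 2 (1.08, adjusted p = 0.125) and with the replicate number as a block (1.19, adjusted p = 0.0567). Col3a1 shares 141 exonic bases with the gene model Gm47302.

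Col1a1, the type I collagen alpha 1 chain, rose in clones 2 and 3 and in Btbd7 KO. It was at 8.65, 14.2, 12.9 and 9.85 CPM in wild type and 19.05, 23.0, 16.1 and 13.7 in Btbd7 KO. The clones had 11.9, 9.07, 10.4 and 11.5 CPM in clone 1, 26.6, 23.5, 23.5 and 23.7 in clone 2 and 20.1, 23.9, 24.1 and 23.4 in clone 3. Every library of clones 2 and 3 was above wild type, clone 1 was within its range, and Btbd7 KO overlapped with it. The log2 fold change was 1.09 ± 0.15 in clone 2 (adjusted p = 5.3e-06), 1.00 ± 0.16 in clone 3 (adjusted p = 2.27e-05) and 0.66 ± 0.16 in Btbd7 KO (adjusted p = 0.00369). Col1a2, its partner chain, had 0.656 CPM on average in wild type and was called higher in Btbd7 KO (1.81 ± 0.54, adjusted p = 0.0217), a call lost without Btbd7 KO replicate 2 (1.75, adjusted p = 0.0565). Col5a2 had 24 counts over the wild-type libraries, 2 in clone 1, 2 in clone 2, 36 in clone 3 and 183 in Btbd7 KO. Its rise in Btbd7 KO had an adjusted p of 0.00219 and a ratio of 9.33 to wild type (95% interval 6.08 to 14.9). In clone 2 the ratio was 0.0986 (0.0113 to 0.397), and both intervals cover counting error only. Without wild-type replicate 2 the clone 2 call of Col5a2 was lost (adjusted p = 0.121). Col12a1, a fibril-associated collagen, rose in clone 3 (1.09 ± 0.24, adjusted p = 0.00143) and fell in Btbd7 KO (-0.99 ± 0.26, adjusted p = 0.0105). In the mean of the clones, 1 of the 5 tested collagens of this group was higher and 1 lower. In Btbd7 KO 4 were higher and 1 lower, beside 7.73% and 8% of all genes, but Col1a2 and Col5a2 passed the filter through groups where they were high, Btbd7 KO among them. Fitted on only these groups, Col1a1 (0.66, adjusted p = 0.0697) and Col12a1 (adjusted p = 0.121) were not called in Btbd7 KO.

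The matrix glycoproteins held the most abundant gene of the set, and 3 of the 4 tested were lower in each clone. Thbs1 (ENSMUSG00000040152.8, chromosome 2, 118111876 to 118127133, plus strand) encodes thrombospondin 1, a secreted glycoprotein that binds cells and matrix and can activate latent TGF-beta. It shares 208 exonic bases with the gene model Gm29233. Thbs1 stood at 2850.1, 3072, 2745 and 2669 CPM in wild type and 3296, 3407, 3056 and 3061 in Btbd7 KO. Clone 1 had 2038, 2048, 1622 and 1797 CPM, clone 2 1822, 1741, 1915 and 1795, and clone 3 2070.3, 2064, 1872 and 2031. No clone library reached the lowest wild-type library, and Btbd7 KO overlapped with the upper end of wild type. Thbs1 fell to 0.670 of the wild-type level in the mean of the clones, with a log2 fold change of -0.58 ± 0.050 (adjusted p = 2.47e-09). The difference among the clones did not pass the test (adjusted p = 0.203), with values of -0.59 ± 0.064, -0.64 ± 0.064 and -0.50 ± 0.064. With counts summed per cell line, and the 3 clones set against the wild-type and Btbd7 KO lines, Thbs1 was still called lower (-0.70, adjusted p = 0.0059).

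Sparc (ENSMUSG00000018593.13, chromosome 11, 55394500 to 55423183, minus strand), a collagen-binding glycoprotein also called osteonectin, was at 329, 297, 319 and 316 CPM in wild type and 412, 418, 434 and 428 in Btbd7 KO. Clone 1 had 184, 214, 186 and 188 CPM, clone 2 181, 178, 157 and 179, and clone 3 223, 219, 204 and 229. The clones were all below wild type and Btbd7 KO all above it, with no overlap. Its log2 fold change was -0.70 ± 0.046 in the mean of the clones (adjusted p = 1.64e-11) and 0.42 ± 0.058 in Btbd7 KO (adjusted p = 1.03e-05). Clone 2 was lowest, at -0.86 ± 0.059, and the clones differed (adjusted p = 0.0003). The summed fibroblast markers were lowest in clone 3, at 97.81 to 116.6 CPM, and at 150.6 to 172.2 in clone 2. Their part in the Sparc values was not tested.

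Fbln2 (ENSMUSG00000064080.12, chromosome 6, 91212455 to 91272540, plus strand) encodes fibulin 2, which binds laminins, nidogen and fibronectin. It was at 972, 941, 1007 and 918 CPM in wild type and 878, 931, 848 and 842 in Btbd7 KO. In clone 1 it was at 551, 558, 518 and 570.3 CPM, in clone 2 at 699.8, 671, 674 and 668, and in clone 3 at 892, 834, 782 and 834. All 12 clone libraries were below wild type, clone 1 furthest, while Btbd7 KO overlapped with it. Log2 fold changes were -0.81 ± 0.050 in clone 1 (adjusted p = 6.58e-12), -0.50 ± 0.050 in clone 2 (adjusted p = 2.67e-08) and -0.20 ± 0.050 in clone 3 (adjusted p = 0.00342). Without TMM scaling the clone 3 value was -0.12, adjusted p = 0.062. Bgn, the small proteoglycan biglycan, was at 4.23 ± 1.64 CPM in wild type and rose in clone 3, to 9.02 ± 0.570 (1.09 ± 0.26, adjusted p = 0.00237).

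**Figure D3:**
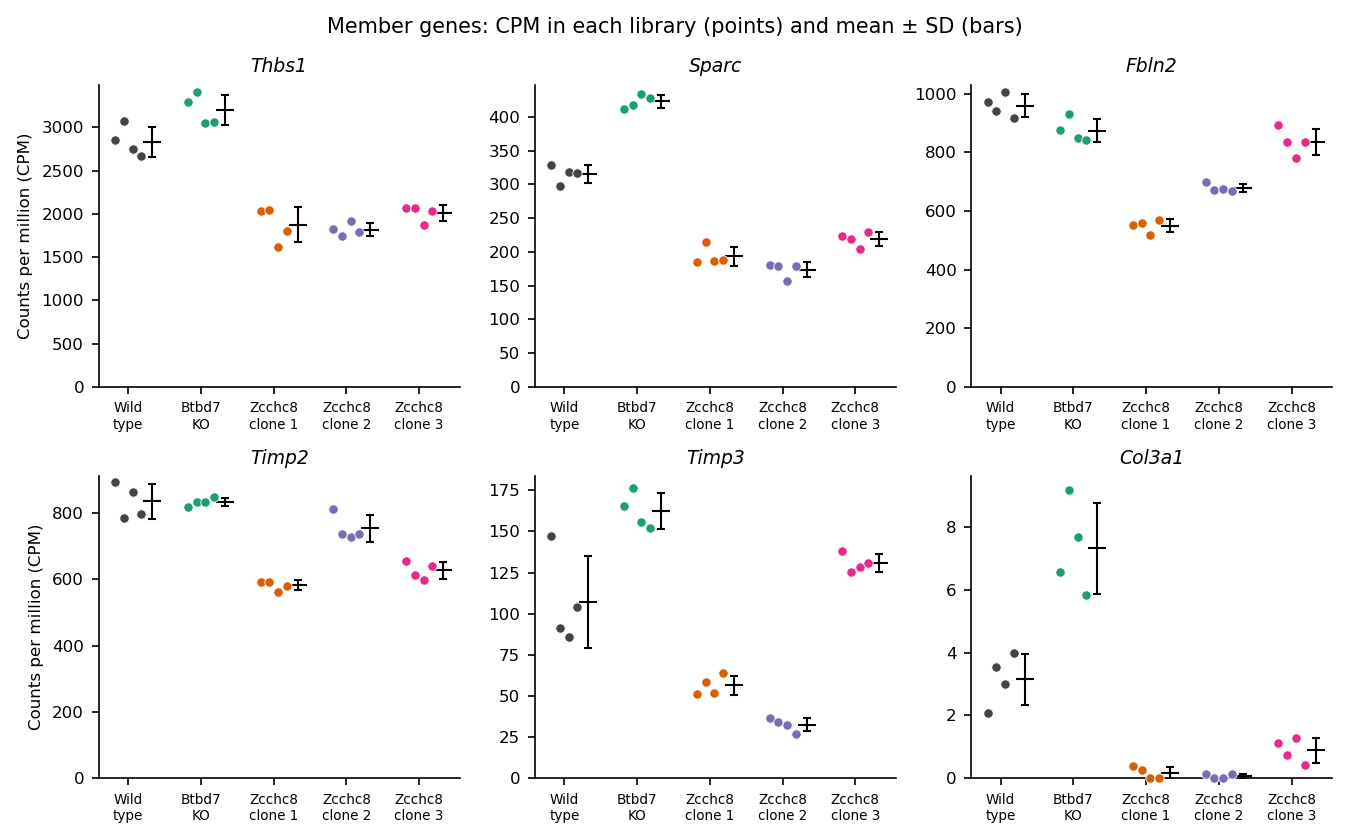
CPM (y axis) of Thbs1, Sparc, Fbln2, Timp2, Timp3 and Col3a1 in every library of the 5 groups (x axis), with points for libraries and bars for the mean ± SD of 4 libraries. Thbs1, Sparc, Fbln2 and Col3a1 have every clone library below every wild-type library, and Timp3 is below wild type in clones 1 and 2 but not in clone 3.

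The TIMP genes, which encode inhibitors of matrix metalloproteinases, were all lower in the mean of the clones, and Mmp14, a membrane-bound metalloproteinase, was called lower in clone 2. Timp2 (ENSMUSG00000017466.9, chromosome 11, 118301069 to 118355740, minus strand) was at 895, 785, 862 and 798 CPM in wild type and 818, 833, 832 and 849 in Btbd7 KO. Clone 1 had 593, 593, 563 and 580.0 CPM, clone 2 813, 737, 728 and 736, and clone 3 656, 612, 598 and 641. Clones 1 and 3 lay below wild type with no overlap, and 1 library of clone 2 overlapped with it. The log2 fold change was -0.52 ± 0.051 in clone 1 (adjusted p = 1.72e-08), -0.41 ± 0.051 in clone 3 (adjusted p = 8.03e-07) and -0.15 ± 0.050 in clone 2 (adjusted p = 0.0256). The clone 2 call was lost without wild-type replicate 1 (-0.087, adjusted p = 0.16) and without TMM scaling (-0.060, adjusted p = 0.375).

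Timp3 (ENSMUSG00000020044.13, chromosome 10, 86300372 to 86349506, plus strand), whose protein stays bound to the matrix, was at 148, 91.1, 85.7 and 104 CPM in wild type and 166, 176, 156 and 152 in Btbd7 KO. Clone 1 had 51.2, 58.5, 52.1 and 63.9 CPM, clone 2 36.7, 33.98, 32.3 and 27.1, and clone 3 138, 125, 128 and 131. Clones 1 and 2 were below wild type, Btbd7 KO was above it, and clone 3 was within its range. Timp3 fell in clone 2 (-1.73 ± 0.12, adjusted p = 1.33e-10) and in clone 1 (-0.92 ± 0.12, adjusted p = 2.03e-06). It rose in Btbd7 KO (0.60 ± 0.12, adjusted p = 0.000603), and in clone 3 the value was 0.29 ± 0.12 (adjusted p = 0.0649). Timp3 lies within Syn3 on the opposite strand and shares 1733 exonic bases with it, and the strand setting of the counting is not given in the sources used here, so reads of the 2 genes cannot be told apart. Timp1 went from 37.9 ± 1.40 CPM in wild type to 28.7 ± 3.09 in clone 1 (-0.40 ± 0.10, adjusted p = 0.0038) and 27.5 ± 2.32 in clone 2 (-0.46 ± 0.10, adjusted p = 0.00101). In clone 3 it was at 36.4 ± 3.73 CPM (-0.053 ± 0.10, adjusted p = 0.743). Mmp14 was at 228 ± 5.82 CPM in wild type and 198 ± 11.4 in clone 2 (-0.20 ± 0.055, adjusted p = 0.00591). Without TMM scaling the clone 2 call was lost (-0.12, adjusted p = 0.114). The libraries of Btbd7 KO, from 195 to 222 CPM, and of clone 1, from 193 to 219, also lay below the 222 to 235 of wild type, and those of clone 3, from 229 to 242, overlapped with it. DESeq2 called Mmp14 lower in Btbd7 KO as well.

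Set directly against Btbd7 KO, the mean of the clones was lower for 14 and higher for 4 of the 25 genes (22.2% and 18.8% of all genes), with a median log2 fold change of -0.36. Sparc had -1.12 ± 0.045, adjusted p = 6.28e-16 there, Timp3 -1.39 ± 0.091, adjusted p = 7.3e-12, and Thbs1 -0.75 ± 0.050, adjusted p = 8.42e-12. Col1a2, Col3a1 and Col5a2, also lower there, passed the filter through the groups where they were higher, Btbd7 KO among them. Of the genes called both in the mean of the clones and in Btbd7 KO against wild type, Col3a1, Sparc and Timp3 were lower in the clones and higher in Btbd7 KO, and Lamb2 was the reverse. Col1a1 and Nid1 were higher in both, but their Btbd7 KO calls were lost in a fit of only the groups compared. By edgeR, Fbln2, Thbs1 and Timp2 were lower in each clone and not called in Btbd7 KO, where their values were -0.13 ± 0.050 (adjusted p = 0.0694), 0.18 ± 0.064 (adjusted p = 0.059) and -0.0033 ± 0.050 (adjusted p = 0.977). DESeq2 called Fbln2 lower in Btbd7 KO too, and did not call Timp2 lower in clone 2 (-0.12, adjusted p = 0.0564).

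A wider list of 95 other matrix genes also held more lower than higher calls. Of 58 tested, 21 were lower (36.2%) and 12 higher (20.7%) in the mean of the clones, beside 19.9% and 16.2% of all genes, with a median of -0.09. Among other collagens 5 of 9 were lower and 3 higher, and among glycoproteins 9 of 20 were lower and 3 higher. Among single clones, the collagens had more lower than higher calls in clone 2 only. They had 2 lower and 2 higher in clone 1, 3 and 2 in clone 2, and 0 and 3 in clone 3. Their median was -0.18 in the mean of the clones but 0.17, 0.33 and 0.40 in clones 1 to 3. Col4a3 and Col4a4, lower in the mean, were called lower in clone 2 and higher in clone 3. The collagen folding and modifying enzymes had 3 of 15 lower, near the share of all genes, and 5 higher. P4ha1, the alpha subunit of the prolyl hydroxylase that stabilises collagen, rose from 59.2 ± 8.69 CPM in wild type to 80.1 ± 5.69, 71.0 ± 10.9 and 78.9 ± 8.11 in clones 1 to 3 (mean 0.37 ± 0.087, adjusted p = 0.00145). Loxl4, a cross-linking lysyl oxidase, fell from 291 ± 12.6 to 179 ± 5.93, 189 ± 10.99 and 217 ± 10.5 CPM (mean -0.58 ± 0.043, adjusted p = 1.27e-10). It was also lower in Btbd7 KO, at 243 ± 7.01 CPM (-0.26 ± 0.054, adjusted p = 0.0014). Ecm1, a glycoprotein that binds perlecan and fibulins, fell from 123 ± 10.7 to 82.0 ± 3.41, 105 ± 7.29 and 93.6 ± 3.08 CPM (mean -0.40 ± 0.055, adjusted p = 3.02e-06). Matn2, the adaptor protein matrilin 2, was lower in each clone (mean -0.76 ± 0.091, adjusted p = 4.3e-07) and in Btbd7 KO, with 46.1 ± 10.4 CPM in wild type and 30.4 ± 2.56 in Btbd7 KO (-0.60 ± 0.12, adjusted p = 0.000614). Tnc, the glycoprotein tenascin C, had 1698 counts over the wild-type libraries and 20, 6 and 86 in clones 1 to 3, and was called lower in each.

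Most of the tested PROMPT regions of the matrix genes were higher in the clones, whereas many of the genes themselves were lower. Of the 34 regions, 14 passed the filter on low counts, and 10 of these were higher and 0 lower in the mean of the clones by edgeR (71.4% higher, against 39.9% higher and 3.31% lower of all 17655 regions tested). At an unadjusted p below 0.05, and by DESeq2, 0 were lower as well. The median log2 fold change of the 14 was 1.85, against 0.45 for all regions. Scaling within the PROMPT table moved the median of all regions by -0.43, to 30.1% higher and 21.9% lower of all regions, and 7 of the matrix regions were then higher and 0 lower: those of Lama5, Lamb2, Lamc1, Fbln2, Thbs1, Timp1 and Timp2. The other 20 were not tested, and 10 of them, among them those of Col3a1 and Sparc, had 0 counts in every library. Of the 14, 8 were below the filter in at least 1 wild-type library and passed it through the groups where they were higher, so these counts do not stand for all 34. Clone 1 had 12 higher and 0 lower (39.3% and 3.79% of all regions), clone 2 had 8 and 1 (36% and 3.09%), and clone 3 had 9 and 0 (36.7% and 2.41%). In each clone, 7 were higher: those of Fbln2, Lama5, Lamb2, Mmp14, Thbs1, Timp1 and Timp2 (28.9% of all regions), and 0 were lower (0.515%). The clones differed from each other in 4 of the 14 regions (28.6%, against 10.9% of all regions). Btbd7 KO had 0 higher and 0 lower by edgeR (1.35% and 1.68% of all regions), with 1 higher (Fbln2) and 1 lower (Lamb2) at an unadjusted p below 0.05 and 0 in either direction by DESeq2. Against Btbd7 KO the mean of the clones had 11 higher and 0 lower (45.6% and 5.77% of all regions). These included Col4a1 and Col4a2, which were not called against wild type, and left out Timp3, which was.

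Thbs1 had the largest log2 fold change among the 5 regions that averaged 50 counts or more per library. It stood at 0.404, 1.70 and 0.758 CPM in wild-type replicates 2 to 4 and 1.26, 0.933, 1.36 and 1.10 in Btbd7 KO. Clone 1 had 13.9, 12.1, 12.4 and 14.4 CPM, clone 2 7.34, 8.06, 5.56 and 6.89, and clone 3 6.47, 6.64, 7.79 and 5.36. All 12 clone libraries were above all wild-type and Btbd7 KO libraries, and clone 1 above the other clones. The log2 fold change was 3.19 ± 0.26 in the mean of the clones (adjusted p = 3.18e-16) and 0.33 ± 0.35 in Btbd7 KO (adjusted p = 0.7). Its size differed among the clones (adjusted p = 0.000227).

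The Fbln2 region had the highest level, at 25.4, 23.0 and 21.0 CPM in wild-type replicates 2 to 4 and 26.6, 30.5, 31.1 and 27.3 in Btbd7 KO. The clones had 85.5, 84.5, 73.3 and 77.1 CPM in clone 1, 71.3, 59.9, 61.1 and 64.9 in clone 2 and 76.3, 84.0, 72.3 and 78.9 in clone 3. Wild type, Btbd7 KO and the clones did not overlap, and Btbd7 KO lay between the other two. The region rose by 1.67 ± 0.095 in the mean of the clones (adjusted p = 1.72e-23), and the Btbd7 KO value of 0.31 ± 0.10 did not pass (adjusted p = 0.0857). An opposite-strand transcript, 4930402H05Rik, starts 2411 bases from the Fbln2 start and rose by 4.04 on the log2 scale as a gene (adjusted p = 8.11e-09). Its part in the reads of the region was not tested.

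Timp1 had 5, 0 and 2 counts in wild-type replicates 2 to 4 and 0, 1, 7 and 7 in Btbd7 KO. Clone 1 had 33, 21, 19 and 17 counts, clone 2 18, 29, 27 and 34, and clone 3 42, 19, 11 and 49. The clone libraries were all higher in CPM than wild type and Btbd7 KO, and the fitted log2 fold change was 4.05 ± 0.60 (adjusted p = 5.21e-08). Timp1 lies inside Syn1, whose gene counts rose by 1.45 (adjusted p = 3.25e-06). The Timp2 region was at 0.112 ± 0.111 CPM in 3 wild-type libraries and at 0.984 ± 0.237, 0.889 ± 0.558 and 0.719 ± 0.305 in clones 1 to 3 (mean 2.90 ± 0.80, adjusted p = 0.00202). Its clone 3 call was lost without wild-type replicate 4 (2.08, adjusted p = 0.0715). The Timp3 region rose in the mean of the clones (2.56 ± 0.91, adjusted p = 0.018), but not without wild-type replicate 3 (2.10, adjusted p = 0.0935) or 4 (2.01, adjusted p = 0.105). Syn3, which overlaps Timp3, rose by 1.95 as a gene (adjusted p = 6.7e-08).

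Of the laminin regions, Lama5, whose promoter window held 4 GGGCGG matches, went from 0.521 ± 0.550 CPM in wild type to 5.39 ± 0.506, 2.04 ± 1.02 and 3.24 ± 0.928 in clones 1 to 3 (mean 2.57 ± 0.42, adjusted p = 4.18e-07). Lamb2 went from 0.532 ± 0.314 to 2.12 ± 0.517, 2.28 ± 0.516 and 2.24 ± 0.576 CPM (mean 2.06 ± 0.45, adjusted p = 9.68e-05). For both regions every clone library was above every wild-type library. Against Btbd7 KO this did not hold for Lama5. Its region was at 1.02, 0.933, 0.986 and 1.44 CPM there, and clone 2 replicate 1 was at 1.25 CPM. Lamc1 rose in the mean of the clones (2.03 ± 0.57, adjusted p = 0.00257), as did Agrn (1.44 ± 0.53, adjusted p = 0.0211), whose call was lost without wild-type replicate 3 (1.21, adjusted p = 0.0982). The Mmp14 region, behind a window with 2 GGGCGG and 2 CCAAT matches, went from 20.3 ± 1.64 CPM to 29.0 ± 3.12, 26.0 ± 1.84 and 29.1 ± 2.30 (mean 0.46 ± 0.10, adjusted p = 0.000178). Scaled within the PROMPT table instead of by the gene totals, it was 0.064, adjusted p = 0.631. Col4a1 and Col4a2 share their start area, and their regions were 0.10 ± 0.16, adjusted p = 0.659, and 0.027 ± 0.17, adjusted p = 0.918, in the mean of the clones against wild type. Against Btbd7 KO both regions were called higher. The Col4a2 region was called higher in clone 1 (0.56 ± 0.20, adjusted p = 0.0199) and lower in clone 2 (-0.50 ± 0.20, adjusted p = 0.0461). Scaled within the PROMPT table the clone 1 call was lost (0.093, adjusted p = 0.729), as it was without wild-type replicate 4 (0.40, adjusted p = 0.151) or its own replicate 4 (0.44, adjusted p = 0.112). The clone 2 call was lost without wild-type replicate 2 (-0.31, adjusted p = 0.321), its own replicate 4 (-0.38, adjusted p = 0.172) and other libraries.

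**Figure D4:**
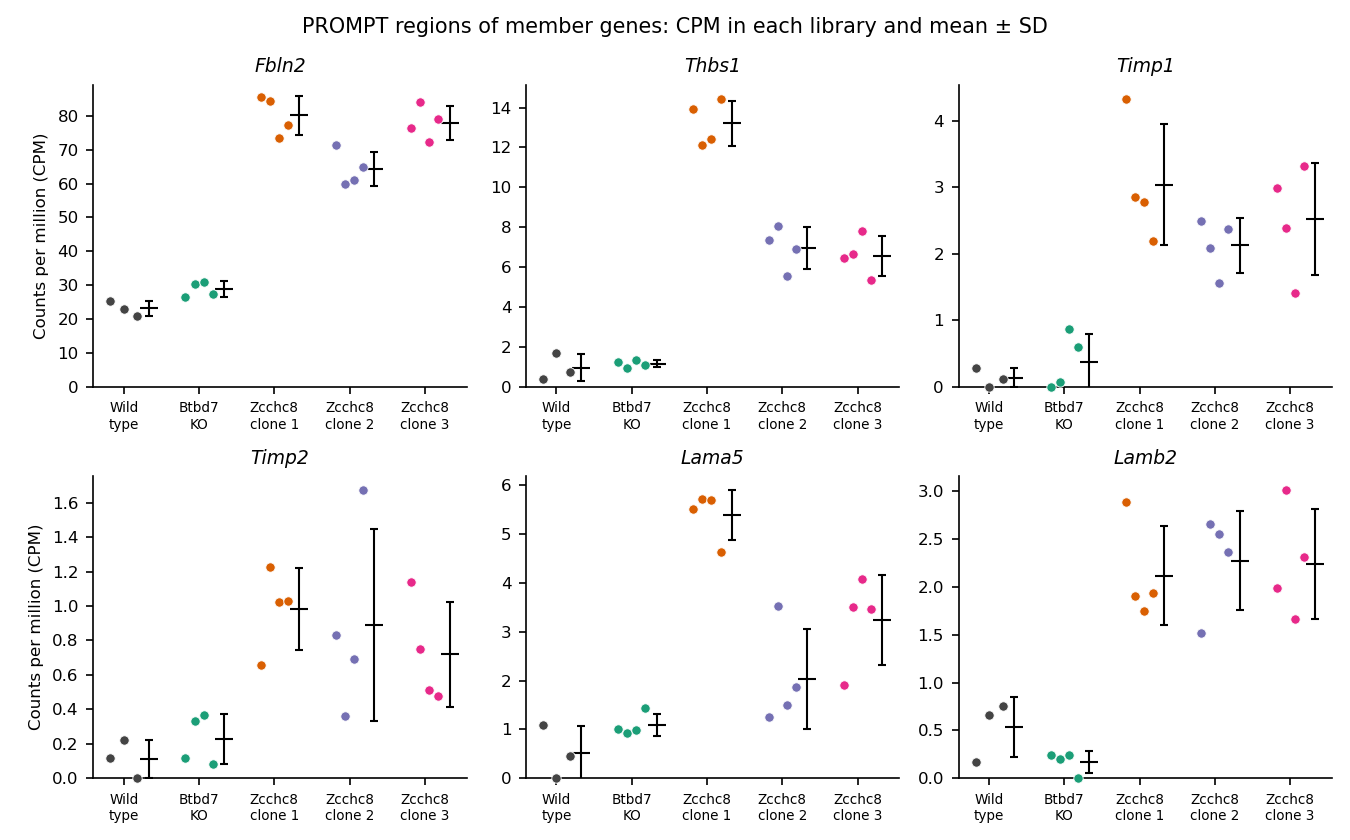
CPM (y axis) of the PROMPT regions of Fbln2, Thbs1, Timp1, Timp2, Lama5 and Lamb2 in every library of the 5 groups (x axis), with points for libraries and bars for the mean ± SD of 3 wild-type libraries and 4 in each other group. Lower bars end at 0, and the clone libraries of all 6 regions lie above the wild-type libraries.

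Set side by side, gene and PROMPT region had opposite calls for 6 of the 14 genes: Fbln2, Lamc1, Thbs1, Timp1, Timp2 and Timp3 were lower as genes while their regions were higher in the mean of the clones. Over the 11386 genes tested in both tables, 12.7% had that pair of calls and 51.6% had a higher region. The regions of Lamc1, Thbs1, Timp1, Timp2 and Timp3 were below the filter in at least 1 wild-type library and passed it through the groups where they were high, which favours a higher region. The lower call of Lamc1 as a gene was lost by DESeq2 (-0.087, adjusted p = 0.0604) and without TMM scaling. Lama5 and Lamb2 were higher in both (9.1% of all genes), and Agrn and Mmp14 had a higher region and no gene call. Col4a1 was lower as a gene with no call in its region, and Bgn, Col4a2 and Lamb1 had no call in either. For Thbs1 the gene value was -0.58 ± 0.050 and the region value 3.19 ± 0.26, and for Lama5 they were 0.14 ± 0.048 and 2.57 ± 0.42. The gene at the start of Thbs1 on the opposite strand, Gm13986, begins 674 bases away and rose by 1.83 as a gene (adjusted p = 0.00743).

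**Figure D5:**
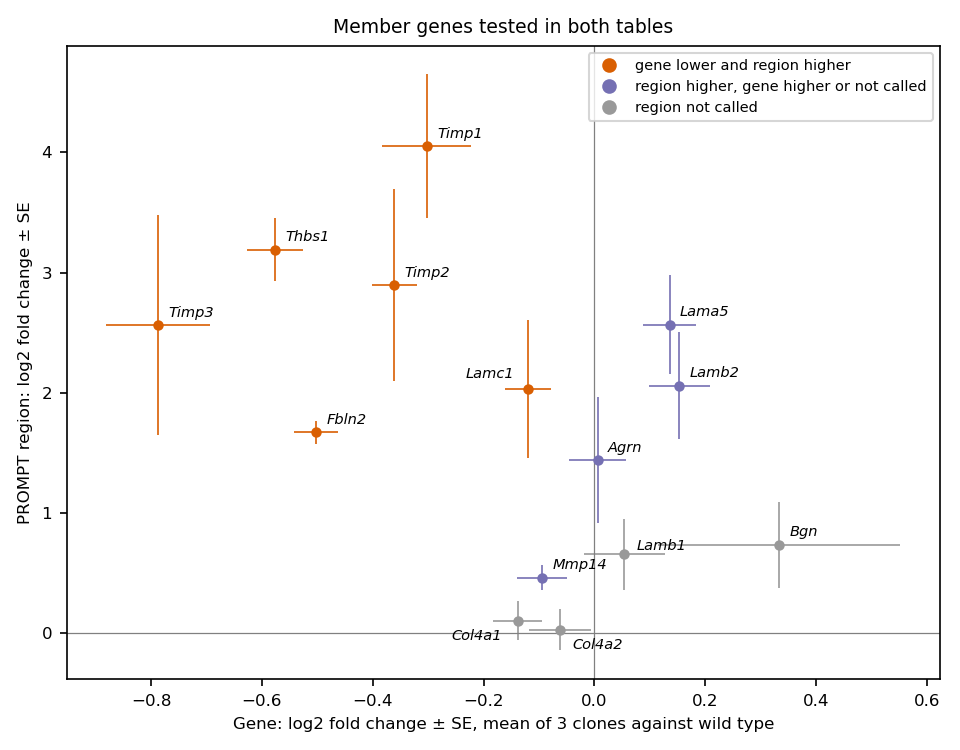
Log2 fold change of the gene (x axis) and of its PROMPT region (y axis) for the 14 genes tested in both tables, mean of the 3 Zcchc8 KO clones against wild type, with bars for the SE. Thbs1, Timp1, Timp2, Timp3, Fbln2 and Lamc1 lie to the left of 0 and above it.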

How the data were processed

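RNA-seq read counts of SIMS cells were analysed in 20 libraries, 4 for each of 5 groups named in the sample titles. The authors deposited raw read counts per gene and per PROMPT region, and whole numbers were found in every column used. Per the labels' protocols the libraries were made from total RNA with a stranded kit. Per the submitters' processing notes FastQC and STAR 2.7.3a were used. The counting program, its strand setting, the genome build and the extent of a PROMPT region are not given in the sources used here. Gene IDs were matched to GENCODE M21 (GRCm38): 54573 of 55471 with their version and 55230 without it, and positions are those of that annotation. 6 tables of other regulatory regions were not used, and a further gene table that repeats these counts was left out.

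Counts were tested with edgeR 4.0.16 (R 4.3.3) by the quasi-likelihood test, with TMM factors computed over all genes, filterByExpr (minimum count 10), 1 coefficient per group over all libraries, and Benjamini-Hochberg adjustment over all features tested (adjusted p below 0.05). PROMPT regions took the gene libraries' totals and TMM factors. The SE of a log2 fold change was its size divided by the square root of F. CPM use the TMM-scaled totals. Intervals of count ratios are exact, at 95%. DESeq2 1.42.0, other scalings and filters, a replicate block, thinned counts and each library left out were alternatives, and TMM after the filter was chosen after seeing the data. On simulated counts 95.8% of 2-fold and 100% of 4-fold changes were recovered among 14748 genes tested with 4.12% false calls, and 80.6% and 98.9% among 16604 PROMPT regions with 3.45% false calls. The simulation gave every feature the same spread and changed 200 features, so its rates need not hold for these libraries. No 2 libraries of a group agreed within sampling noise (lowest chi-square per degree of freedom 2.85). Pairs with wild-type replicate 1 had 36.8 to 73.6.

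The 34 genes, the other lists and the tests were chosen with earlier results of these data known. Of the 95 other matrix genes, those named are up to 4 per direction, called in the same direction in each clone, averaging 50 counts or more, with the largest changes. Col4a3 and Col4a4 were named outside that rule.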

Additional observations from a re-analysis of the deposited data

Results flagged for a closer look

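Among 125 groups of 4 libraries over the 25 tested genes, 8 held a library far from the other 3, where chance gives about 1 in 20, and 0 of these were wild-type replicate 1. Btbd7 KO replicate 4 had 334.6 CPM of Lamb1 against 371.5 to 377.5 in the other 3, and Btbd7 KO replicate 3 had 0.744 CPM of Nid1 against 1.46 to 1.61. Clone 1 replicate 2 was high for Hspg2, at 220.2 CPM against 178.6 to 182.8, and for Sparc, at 214.1 against 184.3 to 187.9. Clone 2 replicate 1 was high for Col1a1, at 26.6 CPM against 23.5 to 23.7, and for Timp2, at 813.2 against 728.1 to 736.9. Clone 2 replicate 3 was low for Sparc, at 156.7 CPM against 178.4 to 180.6, and clone 3 replicate 1 was low for Col1a1, at 20.1 against 23.4 to 24.1.

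The change against wild type differed in size or direction among the 3 clones for 19 genes, by edgeR's test of any difference among the clones with adjustment over all genes. Among laminin chains these were Lama3 (adjusted p = 2.31e-10) and Lamb1 (0.00532). Among basement membrane collagens they were Col4a1 (5.1e-09), Col4a2 (1.83e-07) and Col18a1 (2.46e-09), and among linkers Nid1 (0.000116), Hspg2 (0.0387) and Agrn (8.31e-08). The fibrillar and associated collagens were Col1a1 (5.57e-06), Col3a1 (0.000545), Col5a2 (0.00237) and Col12a1 (0.000124). The glycoproteins were Fbln2 (3.98e-09), Sparc (0.0003) and Bgn (0.00108), and the enzymes and inhibitors Timp1 (0.00579), Timp2 (6.44e-06), Timp3 (1.13e-11) and Mmp14 (0.00231). Of the PROMPT regions, Lama5 (0.0201), Col4a2 (0.000278), Fbln2 (0.0216) and Thbs1 (0.000227) differed in the same way.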

How the results depend on the processing

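With counts summed per cell line, and 3 clones set against the wild-type and Btbd7 KO lines, 0 matrix genes were higher and 3 lower. These were Col3a1 (-3.88, adjusted p = 0.0392), Thbs1 (-0.70, 0.0059) and Sparc (-0.94, 0.0129). Of all genes, 5.34% were higher and 0.951% lower in that setting, and of the other matrix genes 1 was higher and 1 lower. Fits on only the groups compared gave 3 higher in clone 1 (11% of all genes) and 1 higher in clone 2 (9.61%). They gave 1 lower in Btbd7 KO (4.68%), and DESeq2 gave 5 lower there (9.54%). Without TMM scaling 1 gene was higher and 3 lower in each clone. The share of all genes with such calls in each clone was not computed. Taken 1 clone at a time, 18.1 to 20.7% of all genes were higher and 10.1 to 14% lower in that setting. Leaving out 1 library gave 9 to 13 lower and 3 to 4 higher in the mean of the clones, 1 to 3 higher in clone 2, 4 to 7 higher in clone 3, 6 to 10 higher and 2 to 4 lower in Btbd7 KO, 17 to 22 differing among the clones, and 5 to 8 PROMPT regions higher in each clone. The shares of all genes and regions in these fits were not computed. Scaled within the PROMPT table, the Mmp14 region in clone 2 was -0.0019. Over 145 single log2 fold changes and all settings, 3824 of 3990 values kept direction and call, 165 lost the call and 1 turned direction. Of the 145 results, 98 were kept under every setting. Depth was least in clone 1, and genes and regions near the filter (Nid1, Col1a2, Col5a2 and 8 PROMPT regions) rest on few counts.

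The replicate numbers did not pair the libraries: of 40 same-numbered pairs 1 had a correlation of deviations over 0.1 (median 0.0014), and 1 of 20 libraries correlated best with its own number. With the replicate number as a block the mean of the clones had 4 genes higher and 11 lower (16.4% and 19.4% of all genes). Btbd7 KO had 9 higher (7.75% of all genes).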

Other observations

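Of the other type IV collagen chains, Col4a3 and Col4a4, neighbours whose products join Col4a5 in the trimer of kidney and lung, had their lowest levels in clone 2 (chosen after their values were seen). Col4a3 stood at 58.1 ± 3.37 CPM (SD, n = 4) in wild type, 136 ± 5.58 in Btbd7 KO, 64.6 ± 4.46 in clone 1, 2.58 ± 1.21 in clone 2 and 105 ± 8.65 in clone 3. It fell in clone 2 (-4.41 ± 0.15, adjusted p = 4.03e-17) and rose in clone 3 (0.86 ± 0.11, adjusted p = 9.15e-07) and Btbd7 KO (1.23 ± 0.11, adjusted p = 9.79e-09), by edgeR. Col4a4 stood at 55.3 ± 1.51, 76.8 ± 4.62, 49.8 ± 3.83, 5.599 ± 0.913 and 80.7 ± 3.73 CPM in the same order, and it too fell in clone 2 (-3.33 ± 0.10, adjusted p = 3.58e-18). Col4a1 and Col4a2 were also lowest in clone 2, at 245 ± 12.3 and 182 ± 11.8 CPM. Col4a5 did not follow them: it was called lower in clone 1, in the mean of the clones and in Btbd7 KO, and not called in clones 2 and 3.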
